A study of Mus musculus with 18 samples.

Results

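The proteasome is the large protease that degrades ubiquitin-tagged proteins, and its transcripts were compared here between CD34+ and CD34- clones of mouse bone marrow stromal cells. Members were the probe sets, each a group of short probes against 1 transcript, whose only gene symbol starts with Psm, then a letter from a to g, then a digit. The symbols match 85 of the 36701 probe sets that were read, and 49 genes. Of these, 81 probe sets of 46 genes belong to 7 classes defined by place in the complex: alpha ring, constitutive beta ring, cap ATPases, other cap subunits, immunoproteasome with PA28, other activators with the inhibitor, and assembly factors. The other 4 probe sets are in none of these classes: 1 reads Psmb11, the catalytic subunit of the thymus proteasome, and was too dim to test, and 3 read Psmc3ip and Psme3ip1, which share the name pattern without being parts of the complex. Psme2, the partner of Psme1 in PA28, is not among the members because its 3 probe sets carry a pair of symbols.

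CD34 is a surface sialomucin of blood stem cells, endothelium and some stromal cells. The 6 RNAs came from adult mouse marrow, 3 from CD34+ and 3 from CD34- stromal cells. In both groups single cells were expanded into colonies in serum-supplemented DMEM, and purity was judged by flow cytometry for CD34. Each RNA was hybridised once to each of 3 Affymetrix chip types, MG_U74Av2, MG_U74Bv2 and MG_U74Cv2, which makes 18 arrays. The labels name neither strain nor sex. Whether equal labels cover 1 clone or several is open, so CD34 status and clone cannot be told apart.

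The 20S core is a barrel of 4 stacked rings. The outer rings hold alpha subunits, which gate the entry, and the inner rings hold beta subunits, 3 of which cut peptide bonds. The 19S cap binds ubiquitin chains, removes them, and threads the unfolded substrate through a ring of ATPases into the core. Interferon induces a second set of catalytic subunits, which replace the constitutive ones in the immunoproteasome and change the peptides offered to class I major histocompatibility molecules. Dedicated chaperones assemble the core and the cap.

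Levels are signals after quantile normalization, in intensity units, and log2 differences are CD34+ minus CD34-. A probe set was tested if it was not dim, and called if limma's adjusted p over all tested probe sets of its chip type was under 0.05. Cd34 itself checked the labels: its 2 probe sets on MG_U74Av2 averaged 881 ± 82.0 and 869 ± 48.3 in CD34+ clones, against 120 ± 56.3 and 131 ± 62.5 in CD34- clones (SD, n = 3 each). Stromal markers, summed over 12 genes, lay between 55226 and 59217 in CD34+ clones and between 103230 and 111100 in CD34- clones, and 6 of the 10 tested ones fell while 1 rose. Of 11 haematopoietic and myeloid markers, 7 including Ptprc were too dim to test, none of the other 4 was called, and the sums overlapped (3316 to 3767 against 3050 to 4524). Summed lymphoid (640 to 729 against 621 to 823) and erythroid markers (670 to 909 against 338 to 831) overlapped too, while endothelial ones were lower in CD34+ clones (340 to 542 against 584 to 758), with 1 of 6 bright enough to test. None of these markers was at 0. On MG_U74Av2 the ratio of 3′ to 5′ signal, a measure of RNA integrity, was 0.700 to 0.771 in CD34+ clones against 0.802 to 0.832 in CD34- clones for Gapdh, and 1.03 to 1.09 against 1.10 to 1.2 for actin. RNA concentration was 0.421 to 0.721 µg/µl in CD34+ clones and 0.989 to 1.38 µg/µl in CD34- clones. The part of these differences in the results below was not tested.

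Most transcripts of the proteasome classes were not called, and of those called all but Psmb10 were higher in CD34+ clones. Of the 81 probe sets in these classes, 71 passed the filter on dim signals and 10 were removed. Counts of members below cover these classes unless Psme3ip1 is named. On MG_U74Av2, 10 of 51 tested members rose, 19.6%, beside 8.21% of all tested probe sets, and 1 fell, 1.96%, beside 6.69%. The members are bright: their median signal was 2214, against 746 for all tested probe sets, and 34 of them belonged to the brightest 25%. Among those brightest 25%, 8 of the 34 members rose, 23.5%, beside 15.6% of all probe sets there. Without CD34+ replicate 1, and without CD34+ replicate 2, 6 of the 51 rose, 11.8%, beside 5.24% and 4.38% of all tested probe sets in those fits. Of the 51, 37 had a log2 difference above 0, which is 72.5% beside 51.3% of all. In 19 members every CD34+ RNA lay above every CD34- RNA, and in 2 every one lay below; over all probe sets of that chip type these shares are 18.8% and 15.7%. In RNA from whole cultures, fewer cells with a transcript and less of it per cell cannot be told apart.

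No member was called on the other chip types with limma's adjusted p. On MG_U74Bv2, where 1.09% of all probe sets were called, 0 of 6 tested members were called and 0 had an unadjusted p under 0.05, beside 16.4% of all. On MG_U74Cv2, where 0.0936% were called, 0 of 14 members were called and 2 had an unadjusted p under 0.05, which is 14.3% beside 8.84% of all. Both of these, of Psmd4 and Psmd10, were lower in CD34+ clones, opposite to most members on MG_U74Av2. The spread there was wider: the median SD of log2 values within a group was 0.39 for members on MG_U74Cv2, 0.25 on MG_U74Bv2 and 0.15 on MG_U74Av2. One probe set then stood for each gene, the brightest tested one on the first chip type that had any, and 44 of the 46 genes had one. Of these 44 genes 10 rose, 1 fell and 33 were not called, where over all 11969 genes 4.38% rose and 3.50% fell. Those 11969 include many genes read on the other chip types alone, where few were called. Of the 44, all but Psma8 and Psmf1 were read on MG_U74Av2, where 8.21% of all tested probe sets rose and 6.69% fell. Psmc4, an ATPase, and Psmd2, a scaffold of the cap, were too dim to test.

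**Figure D1:**
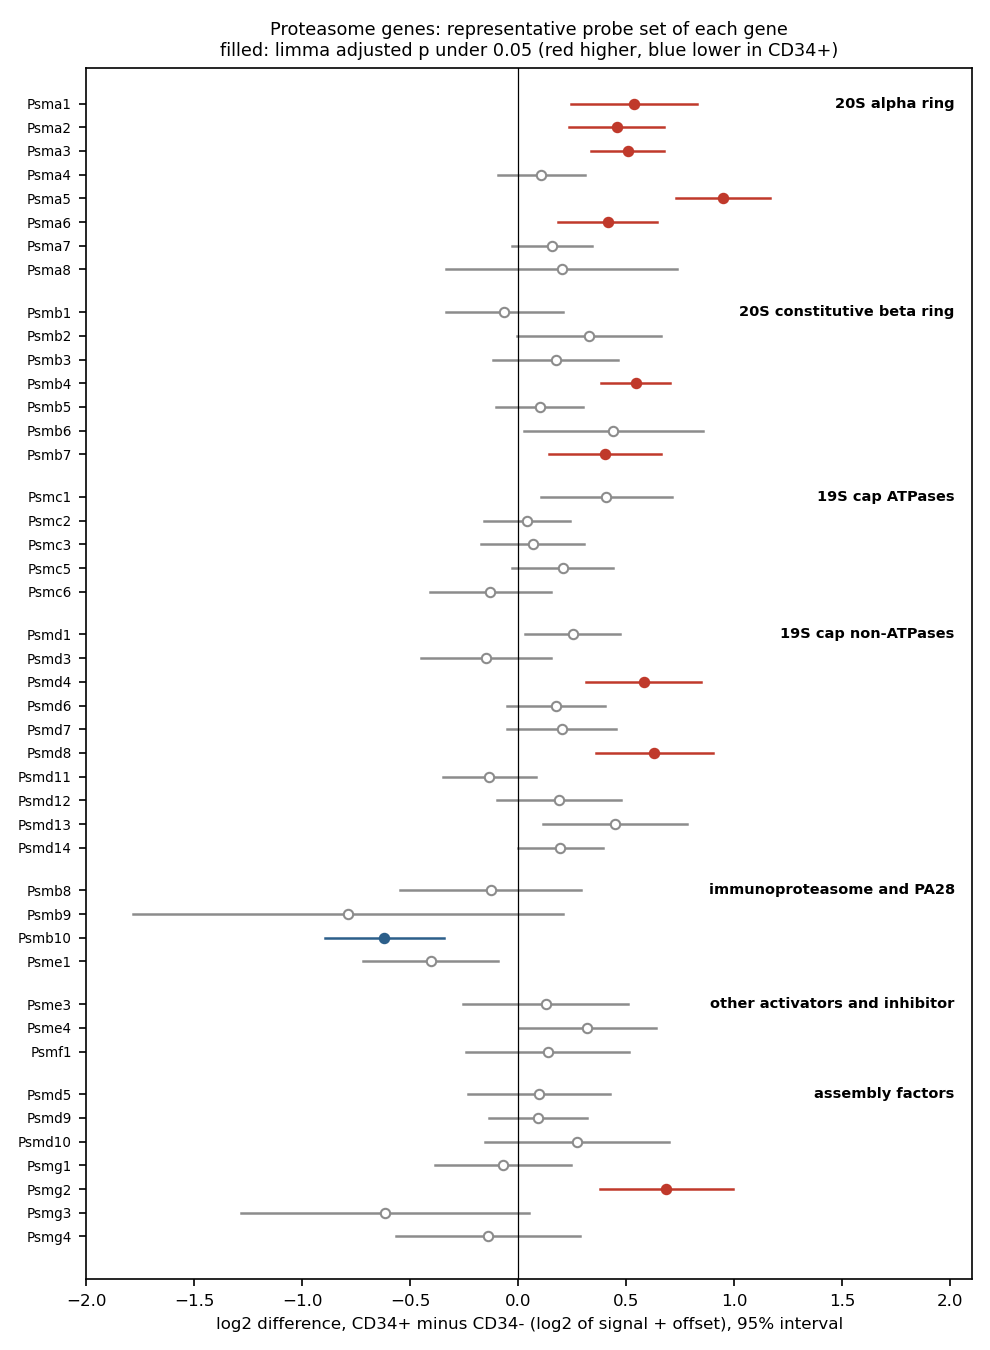
Log2 difference of each of the 44 proteasome genes, CD34+ minus CD34-, at its representative probe set, with limma's 95% interval and grouped by class. Filled points passed limma's adjusted p of 0.05; the 10 red ones lie right of 0, 5 of them in the alpha ring, and the blue one, Psmb10, lies left of it.

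In the alpha ring all 8 tested genes had a log2 difference above 0, with a median of 0.43 beside 0.02 over all genes, and 5 of the 8 rose. The promoters of 3 of the genes that rose, Psma5, Psma3 and Psma2, are shown here beside those of Psmb10, which fell, and Psme1. Psma1, which rose by more than Psma3 and Psma2, is not shown. Psme1 was lower in every CD34+ RNA, as were 15.7% of all tested probe sets on MG_U74Av2, but was not called. These promoters let the upstream sequence of members with differences of opposite sign be compared. They are the 300-base windows around the annotated gene start in RefSeq, build GRCm38.p6, written on the strand of the gene: chr3:108256676-108256975 (plus) for Psma5, chr12:70974373-70974672 (plus) for Psma3, chr13:14612992-14613291 (plus) for Psma2, chr8:105938343-105938642 (minus) for Psmb10 and chr14:55578244-55578543 (plus) for Psme1. Capitals mark matches, on either strand, to 4 motifs searched: CCAAT, the box bound by NF-Y, which is ATTGG on the other strand; the core of the interferon-stimulated response element, which is the run of capitals in Psme1, read there on the other strand; TTCNNNGAA, the interferon-gamma activated site; and TGACNNNGC, the core of the antioxidant response element that Nfe2l1 and Nfe2l2 can bind.
Psma5: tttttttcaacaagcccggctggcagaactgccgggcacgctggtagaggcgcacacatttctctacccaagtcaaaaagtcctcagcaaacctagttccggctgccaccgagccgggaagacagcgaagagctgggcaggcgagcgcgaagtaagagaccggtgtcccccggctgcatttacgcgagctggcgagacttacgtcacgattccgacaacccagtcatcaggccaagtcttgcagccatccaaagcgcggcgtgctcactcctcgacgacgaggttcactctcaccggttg
Psma3: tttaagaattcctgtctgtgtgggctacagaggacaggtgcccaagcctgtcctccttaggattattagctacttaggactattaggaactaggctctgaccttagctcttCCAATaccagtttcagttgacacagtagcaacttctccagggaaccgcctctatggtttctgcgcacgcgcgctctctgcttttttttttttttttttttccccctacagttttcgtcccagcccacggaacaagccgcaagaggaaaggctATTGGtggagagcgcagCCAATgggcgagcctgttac
Psma2: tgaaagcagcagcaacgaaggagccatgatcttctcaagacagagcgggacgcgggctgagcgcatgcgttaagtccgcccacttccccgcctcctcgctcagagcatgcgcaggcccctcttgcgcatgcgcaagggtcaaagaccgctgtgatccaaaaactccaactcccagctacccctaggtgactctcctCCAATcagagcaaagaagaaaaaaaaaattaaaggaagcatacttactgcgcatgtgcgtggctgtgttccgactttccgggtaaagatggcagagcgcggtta
Psmb10: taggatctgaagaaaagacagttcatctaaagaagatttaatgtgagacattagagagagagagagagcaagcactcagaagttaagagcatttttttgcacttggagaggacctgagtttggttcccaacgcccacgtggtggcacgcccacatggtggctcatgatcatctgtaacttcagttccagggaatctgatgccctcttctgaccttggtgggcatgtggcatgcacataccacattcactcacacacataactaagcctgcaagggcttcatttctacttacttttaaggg
Psme1: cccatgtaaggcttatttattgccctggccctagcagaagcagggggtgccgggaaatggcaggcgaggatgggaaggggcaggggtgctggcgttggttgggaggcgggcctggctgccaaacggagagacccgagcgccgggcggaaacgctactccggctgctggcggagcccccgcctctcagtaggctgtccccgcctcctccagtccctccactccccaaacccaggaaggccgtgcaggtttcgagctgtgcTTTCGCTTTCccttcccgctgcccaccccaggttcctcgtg
The window of Psmb10 rests on the gene start in that table, and whether these cells start the transcript there was not tested. No base of these windows lies in 2 matches. CCAAT stood 3 times in the window of Psma3 and once in that of Psma2, and the window of Psma5 held none of the 4 motifs. Of the 46 genes 38 matched the RefSeq promoter table, with 42 windows when Psme2 and second starts are included. CCAAT was in 5 of 8 alpha ring windows (Psma1, Psma2, Psma3, Psma6 and Psma7), in 13 of all 42, or 31.0%, and in 37.4% of all 32851 windows of that length. The core of the interferon-stimulated response element was in 5 of the 42, or 11.9%, beside 3.44% of all windows, and the 5 genes were Psme1, Psmb3, Psmd4, Psmd9 and Psmg4. TGACNNNGC was in 6 of the 42, or 14.3%, beside 12.4% of all, and TTCNNNGAA in 3, or 7.14%, beside 8.30%. Psma8, Psmb1, Psmb2, Psmb7, Psmc3, Psmd3, Psmd7 and Psmg2 had no entry in that table.

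Psma5, an alpha subunit, showed the largest log2 difference of the 44 genes. Its signal was 5581, 5382 and 5877 in the CD34+ RNAs, against 2895, 2628 and 3162 in the CD34- RNAs. The lowest CD34+ value was thus far above the highest CD34- value, and the difference came to 1.93-fold (log2 0.95, 95% interval 0.73 to 1.16, limma adjusted p = 0.000397). Psma1, read at 1282, 1290 and 1288 in CD34+ clones, against 910, 744 and 977 in CD34- clones, rose by 0.54 on the log2 scale (limma adjusted p = 0.0237). Its CD34+ RNAs were almost equal and its CD34- RNAs scattered. Psma3 had 10222, 10680 and 9928 in CD34+ clones, against 6982, 7046 and 7650 in CD34- clones, and rose by 0.51 (limma adjusted p = 0.00265).

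Psma2 and Psma6 followed, with log2 differences of 0.45 (limma adjusted p = 0.0140) and 0.41 (0.0256), and in both every CD34+ RNA lay above every CD34- RNA. Psma2 read 7586 to 8595 in CD34+ clones against 5428 to 6679 in CD34- clones, and Psma6 4295 to 5264 against 3354 to 3511. Psma7 did not overlap between the groups either, but its log2 difference of 0.16 was not called (limma adjusted p = 0.248). Psma4, the brightest of the ring, overlapped (log2 0.11). Psma8, a subunit of testis-specific proteasomes, was tested only on MG_U74Cv2, where it overlapped (log2 0.20, limma adjusted p = 0.866). Psma5 and Psma3 were called whichever single RNA was left out. Psma1 was lost without any 1 of CD34+ replicates 1, 2 and 3 or CD34- replicates 1 and 2 (limma adjusted p 0.0559 to 0.0881). Psma2 was lost without CD34+ replicate 1 or 2 or CD34- replicate 1 (0.0539 to 0.0657) and without the variance trend (0.0606). Psma6 was lost without CD34+ replicate 1 or 2 or CD34- replicate 1 or 2 (0.0506 to 0.106), without the variance trend (0.0732) and with median centring (0.0527).

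**Figure D2:**
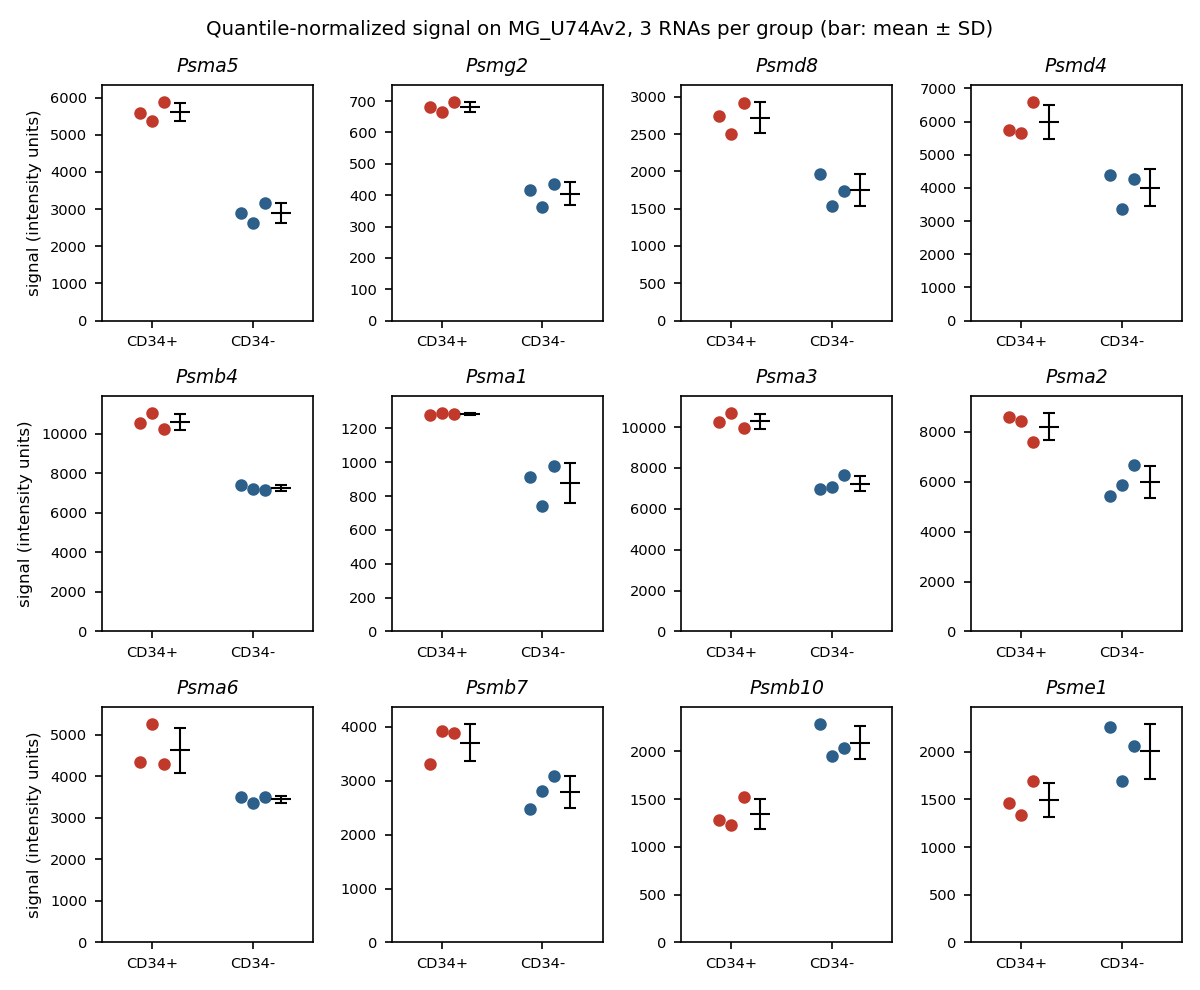
Quantile-normalized signal in intensity units on MG_U74Av2 for the 11 called genes and Psme1, with 1 point per RNA, CD34+ left of CD34-, and the mean ± SD of 3 RNAs beside the points. Psma5 sits between 5382 and 5877 in CD34+ clones and between 2628 and 3162 in CD34- clones; Psmb10 is the called gene whose CD34+ points are the lower ones.

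On MG_U74Av2 8.21% of all tested probe sets rose, and 15.6% of its brightest 25%. In the constitutive beta ring, read on that chip type, 2 of 7 tested genes rose, Psmb4 and Psmb7, and 6 of 7 had a log2 difference above 0. The median was 0.33, 0.16 without CD34+ replicate 3, 0.20 without CD34- replicate 2 and 0.17 when each gene's tested probe sets were averaged. Psmb4, a structural subunit, had 10528, 11048 and 10235 in CD34+ clones, against 7410, 7221 and 7153 in CD34- clones. These groups were narrow and far apart, with a 1.46-fold difference (log2 0.54, limma adjusted p = 0.00141). Psmb7, which carries the trypsin-like activity, read 3305, 3926 and 3885 in CD34+ clones, against 2485, 2813 and 3088 in CD34- clones (log2 0.40, limma adjusted p = 0.0460). That call was lost without any 1 of CD34+ replicates 1 to 3 or CD34- replicates 1 and 2 (0.0502 to 0.157), and in 10 of 14 alternatives in all.

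The other catalytic subunits were not called. Psmb6, the caspase-like subunit, read 3029, 3116 and 3162 in CD34+ clones, against 2517, 1622 and 2880 in CD34- clones (log2 0.44, limma adjusted p = 0.149). The groups did not overlap, and the gene was called without CD34- replicate 3 (log2 0.61, limma adjusted p = 0.0473). Psmb5, the chymotrypsin-like subunit, read 5006, 4688 and 4903 in CD34+ clones, against 4315, 4364 and 4956 in CD34- clones, and these overlapped (log2 0.10, limma adjusted p = 0.5). Of the structural subunits, Psmb2 did not overlap (log2 0.33, limma adjusted p = 0.178), Psmb3 had a log2 difference of 0.17, and Psmb1 was the one below 0, at -0.07. Other tested probe sets of Psmb1 on the same chip type were above 0, at 0.05 and 0.06.

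The 6 ATPases of the cap use ATP to unfold substrates and open the gate of the core. None of the 5 tested was called with limma, 1 had an unadjusted p under 0.05, their median log2 difference was 0.07, and they differed by -0.13 (Psmc6) to 0.41 (Psmc1). That median was 0.15 without CD34- replicate 3, 0.0378 without CD34- replicate 2 and 0.22 when each gene's tested probe sets were averaged. Psmc1 read 1632, 2115 and 1589 in CD34+ clones, against 1293, 1246 and 1418 in CD34- clones, with no overlap and limma adjusted p = 0.0749. Psmc5 did not overlap either, at 1860 to 1973 in CD34+ clones against 1521 to 1735 in CD34- clones (log2 0.21, limma adjusted p = 0.224). Psmc6 overlapped, with 7970, 10388 and 7326 in CD34+ clones against 9583, 8652 and 9617 in CD34- clones. Psmc2 and Psmc3 differed by 0.04 and 0.07 on the log2 scale. For Psmc3 this was the lowest of 4 tested probe sets. The others were at 0.28 and 0.31 on MG_U74Av2 and 0.41 on MG_U74Cv2, all with overlap and not called.

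Among the other cap subunits, 2 of 10 tested rose and the median log2 difference was 0.20. On MG_U74Av2, where these genes were read, 8.21% of all tested probe sets rose, and 15.6% of its brightest 25%. Psmd4, a receptor for ubiquitin chains, had 5754, 5644 and 6584 in CD34+ clones, against 4387, 3375 and 4269 in CD34- clones (1.49-fold, log2 0.58, limma adjusted p = 0.0115). Psmd8, a lid subunit, had 2739, 2504 and 2916 in CD34+ clones, against 1964, 1538 and 1732 in CD34- clones (1.55-fold, log2 0.63, limma adjusted p = 0.00819). In both the groups were well apart, and both were called whichever RNA was left out. Psmd13, another lid subunit, read 1516, 1386 and 1392 in CD34+ clones, against 1176, 826 and 1139 in CD34- clones, with no overlap (log2 0.45, limma adjusted p = 0.0749). Psmd14, the deubiquitinase of the lid, and Psmd1, a scaffold of the base, did not overlap and were not called (log2 0.19 and 0.25). Psmd6, Psmd7 and Psmd12 overlapped at 0.18 to 0.20, while Psmd3 and Psmd11 lay below 0, at -0.15 and -0.13.

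**Figure D3:**
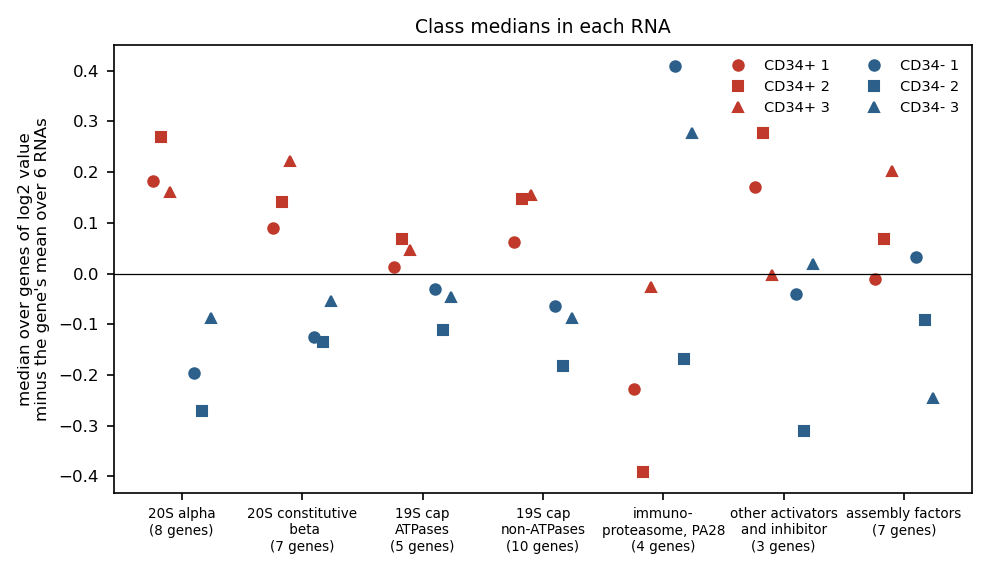
Median over the genes of a class of the log2 value minus the gene's own mean over the 6 RNAs, with 1 point per RNA, for the 7 classes. In the alpha ring the CD34+ RNAs lie between 0.16 and 0.27 and the CD34- RNAs between -0.27 and -0.09; in the immunoproteasome and PA28 class the CD34+ RNAs lie between -0.39 and -0.03 and CD34- replicate 2, at -0.17, is among them.

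In the 4 core and cap classes together, 9 of 30 tested genes rose and 26 lay above 0, at the probe set that stood for each. Of all tested probe sets on MG_U74Av2 8.21% rose, and 15.6% of its brightest 25%. At those 30 probe sets 0 fell with limma, also at an unadjusted p under 0.05. Psmd4 did have a second probe set, on MG_U74Cv2, that was lower (log2 -1.21, limma unadjusted p = 0.00581, adjusted p = 0.362). The immunoproteasome and PA28 class lay on the other side. All 4 tested genes had a log2 difference below 0, with a median of -0.51, and 1 of the 4 fell. Of all tested probe sets on MG_U74Av2, where these 4 were read, 6.69% fell and 51.3% had a log2 difference above 0. Psmb10, which takes the place of Psmb7, read 1283, 1226 and 1527 in CD34+ clones, against 2287, 1949 and 2038 in CD34- clones. The highest CD34+ value was below the lowest CD34- value, and CD34- clones had 1.54 times the level (log2 -0.62, 95% interval -0.90 to -0.34, limma adjusted p = 0.00985). It was called whichever RNA was left out.

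Psme1, a subunit of PA28, the interferon-induced ring that opens the core and speeds the release of peptides, read 1457, 1339 and 1691 in CD34+ clones, against 2256, 1694 and 2061 in CD34- clones. The groups were barely apart, and the log2 difference of -0.41 was not called (limma adjusted p = 0.0839), although it was without CD34- replicate 2 (log2 -0.52, limma adjusted p = 0.0419). Psmb9, which replaces Psmb6, was dim and scattered: 208, 64.2 and 202 in CD34+ clones, against 459, 129 and 373 in CD34- clones (log2 -0.79, limma adjusted p = 0.275). Psmb8, which replaces Psmb5, overlapped at 1382, 1408 and 1910 in CD34+ clones against 1914, 1295 and 1975 in CD34- clones (log2 -0.13, limma adjusted p = 0.687). A dim probe set of Psmb8 on MG_U74Cv2 differed by -0.97 (limma adjusted p = 0.602). In all 4 genes CD34+ replicate 2 was the lowest or second lowest CD34+ RNA, and in CD34- clones replicate 2 was the lowest of each.

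Because each inducible subunit replaces a given constitutive one, the log2 value of the first minus that of the second was taken within each RNA and compared between the groups. Signals of different probe sets are not on 1 scale, so only the change of this difference between groups can be read, and not its size in an RNA. For Psmb10 minus Psmb7 it was lower in CD34+ clones by 1.02 on the log2 scale, or 2.03-fold. Relative to the mean of the 6 RNAs it stood at -0.41, -0.72 and -0.40 in the CD34+ RNAs, against 0.80, 0.40 and 0.33 in the CD34- RNAs, which do not overlap. Psmb10 was lower in every CD34+ RNA than in every CD34- RNA, and Psmb7 was higher. The separation of this pair and its permutation p below were therefore fixed in advance, and only the size can be read. For Psmb9 minus Psmb6 the group difference was -1.23, with -0.18, -1.38 and -0.28 in CD34+ clones against 1.06, 0.18 and 0.60 in CD34- clones. These did not overlap either, but CD34+ replicate 1 and CD34- replicate 2 came close. Psmb9 was so dim that the size of this difference depends on the offset added before log2: it was -1.33 with the 10th percentile and -0.95 with the 40th percentile of signals as offset, and -0.83 without CD34+ replicate 2. For Psmb8 minus Psmb5 the groups overlapped and differed by -0.23. A two-sided exact permutation test over the 6 RNAs gave p = 0.1 for each of the first 2 pairs and 0.3 for the third, or 0.15, 0.15 and 0.3 after Benjamini-Hochberg adjustment over the 3 pairs. With 3 RNAs against 3 the smallest p it can give is 0.1.

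**Figure D4:**
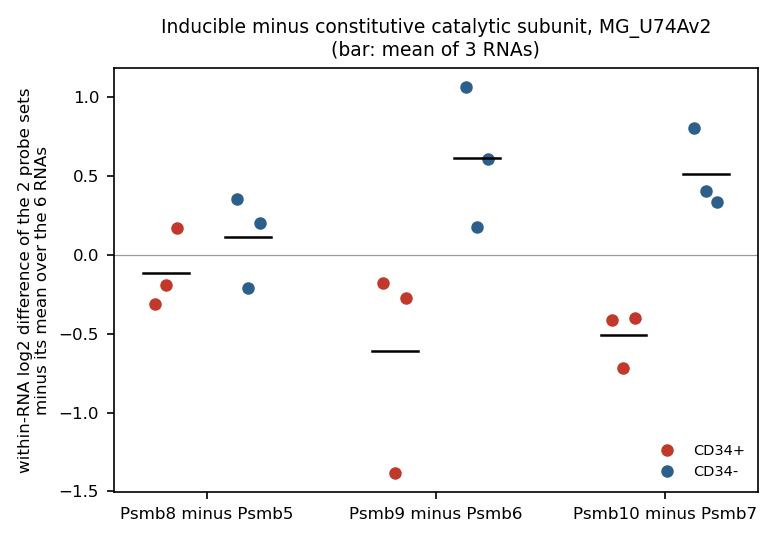
Within-RNA log2 difference between an inducible catalytic subunit and the constitutive one it replaces, minus its mean over the 6 RNAs, on MG_U74Av2; points are RNAs, CD34+ left of CD34-, and bars are means of 3. The groups are separate for Psmb9 minus Psmb6 (-1.23 between the means) and Psmb10 minus Psmb7 (-1.02) and overlap for Psmb8 minus Psmb5 (-0.23).

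None of the 3 other activators and inhibitor genes was called with limma, and 1 had an unadjusted p under 0.05. Psme3, the subunit of the nuclear PA28 ring, read 1104, 1193 and 806 in CD34+ clones, against 795, 1025 and 988 in CD34- clones (log2 0.13). Psme4, a large single-chain activator linked to histone turnover, read 930, 963 and 827 in CD34+ clones, against 801, 612 and 743 in CD34- clones, just without overlap (log2 0.32, limma adjusted p = 0.165). Psmf1, first described as an inhibitor of the core, read 2881, 3973 and 3137 in CD34+ clones, against 3055, 2513 and 3494 in CD34- clones on MG_U74Bv2 and overlapped (log2 0.14). Their median was 0.14, and leaving out 1 RNA moved it between 0.0158 without CD34+ replicate 2 and 0.29 without CD34+ replicate 3; it was also over 1.5 times as high without CD34+ replicate 1 (0.23) or CD34- replicate 3 (0.24), and 0.0871 when each gene's tested probe sets were averaged.

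Of 7 assembly factors, 1 rose, where 8.21% of all tested probe sets on MG_U74Av2 rose. Psmg2, which with Psmg1 forms a chaperone of the alpha ring, had 680, 665 and 697 in CD34+ clones, against 416, 363 and 435 in CD34- clones (1.61-fold, log2 0.69, limma adjusted p = 0.0102). Its partner Psmg1 overlapped, at 1167, 1480 and 1185 in CD34+ clones against 1298, 1204 and 1532 in CD34- clones (log2 -0.07). Of the 2 partners, then, 1 was called, and it was whichever RNA was left out. Psmg3 and Psmg4 form a second chaperone of that ring. Psmg3 read 1162, 1152 and 569 in CD34+ clones, against 1708, 1771 and 970 in CD34- clones (log2 -0.62, limma adjusted p = 0.204), and in each group replicate 3 was the lowest. Psmg4 read 1604, 1584 and 2131 in CD34+ clones, against 2269, 2224 and 1445 in CD34- clones (log2 -0.14).

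The chaperones of the cap base overlapped between the groups. Psmd5 read 3553, 3377 and 4228 in CD34+ clones, against 4256, 3297 and 2954 in CD34- clones (log2 0.10). Psmd9 read 1679, 1719 and 1675 in CD34+ clones, against 1676, 1534 and 1550 in CD34- clones, where 1 CD34+ value lay below the highest CD34- one (log2 0.09). Psmd10, also known as the oncoprotein gankyrin, read 432, 690 and 666 in CD34+ clones, against 490, 514 and 427 in CD34- clones (log2 0.27). The median of the 7 assembly factors was 0.0902, and close to 0 without CD34+ replicate 3 (0.00148), without CD34- replicate 3 (0.0221) or when each gene's tested probe sets were averaged (0.0122).

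Several genes were read more than once, and their probe sets often disagreed. Of 17 genes with several tested probe sets, 10 had log2 differences of both signs and 7 of 1 sign. Psmd4, called higher on MG_U74Av2, differed by -1.21 on MG_U74Cv2, where the signal was 366, 337 and 326 in CD34+ clones against 576, 1163 and 1148 in CD34- clones, without overlap and in the opposite direction (limma adjusted p = 0.362). Psmd10 also had opposite signs, at 0.27 on MG_U74Av2 and -1.13 on MG_U74Cv2 (limma adjusted p = 0.300). So had Psme4, at 0.32 on MG_U74Av2 and -0.64 on MG_U74Cv2. The 4 tested probe sets of Psmf1 ran from -0.26 to 0.39, and none of Psme4 or Psmf1 was called. Psmg3 had -0.62 and 0.80 on MG_U74Av2 and -0.15 on MG_U74Cv2, and the probe set at 0.80 was called without CD34- replicate 1. A dim second probe set of Psmb4 was at -0.50, and those of Psma3 at 0.01 and 0.25 were not called. The called probe sets of Psma3, Psmb4 and Psmb7 carry the suffix f, which Affymetrix gives to probe sets that share probes across a gene family, so their signal may include related transcripts.

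**Figure D5:**
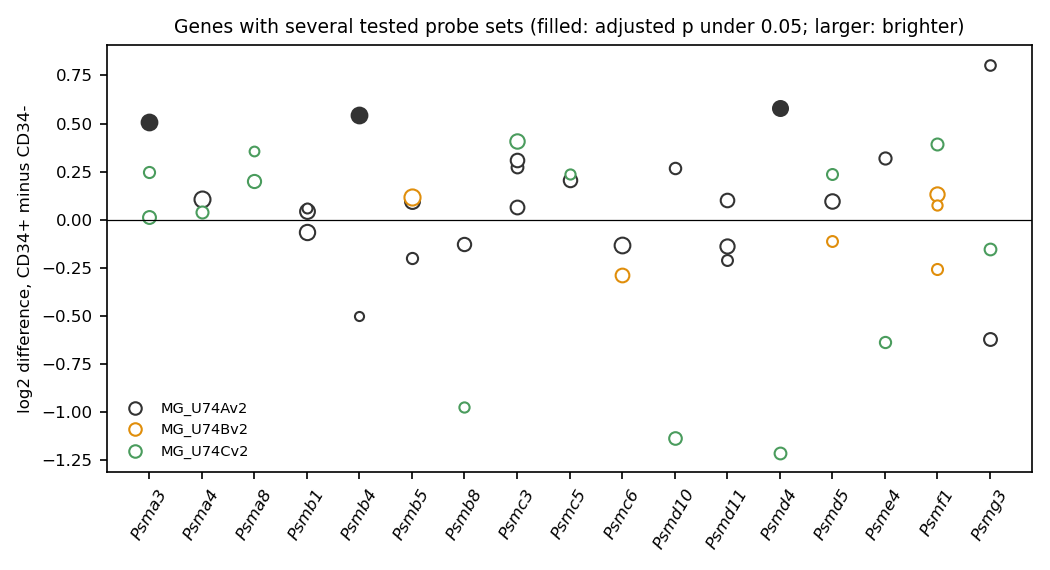
Log2 difference, CD34+ minus CD34-, of every tested probe set of the 17 genes with more than 1, coloured by chip type, larger where brighter and filled where limma's adjusted p was under 0.05. For Psmd4 the filled point at 0.58 on MG_U74Av2 faces one at -1.21 on MG_U74Cv2, and 10 of the 17 genes have points on both sides of 0.

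Arrays of MG_U74Av2 were processed at 2 fluidics stations, and each handled both groups. Station 1 held CD34+ replicate 1 and CD34- replicate 3, and station 2 the other 4 arrays. None of the 11 called members overlapped between the groups, so their direction within a station was fixed in advance and only sizes can be read. The 10 that rose differed by 0.10 to 0.81 at station 1 and by 0.46 to 1.01 at station 2. Psmb10 differed by -0.65 and -0.61. Psmb7 had the 0.10, and with the station as a block its call was lost (limma adjusted p = 0.0716). On the other chip types 1 station held no CD34+ array.

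Genes that work with the proteasome but carry other names were taken from 4 further lists. Over all 11969 genes 4.38% rose and 3.50% fell, with a median log2 difference of 0.02. On MG_U74Av2 8.21% of all tested probe sets rose and 6.69% fell, and 15.6% of its brightest 25% rose. Of 13 tested proteasome-associated genes 5 rose and 0 fell with limma (1 at an unadjusted p under 0.05), with a median log2 difference of 0.28. Pomp, the chaperone on which the beta rings form, read 3818, 3478 and 3634 in CD34+ clones, against 1728, 2417 and 2137 in CD34- clones (1.74-fold, log2 0.80, limma adjusted p = 0.00387). Usp14, a deubiquitinase that trims chains at the cap, read 2047, 1808 and 1641 in CD34+ clones, against 1090, 965 and 1009 in CD34- clones (1.75-fold, log2 0.81, limma adjusted p = 0.00287). Both were well separated and called whichever RNA was left out. Sem1, a small lid subunit, rose by 0.45 (limma adjusted p = 0.0134) and was lost without CD34+ replicate 2 or 3 (0.0569 and 0.0516) and in 4 of 14 alternatives in all. The ubiquitin shuttles Ubqln2 (0.58, limma adjusted p = 0.0383) and Ubqln4 (1.06 on MG_U74Bv2, limma adjusted p = 0.0162) were each lost without any single CD34+ RNA or CD34- replicate 1 (0.0738 to 0.115), and Ubqln4 also with the fluidics station as a block (0.210).

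Of 5 tested regulators of the subunit genes none was called with limma, 2 were lower at an unadjusted p under 0.05, and the median was -0.22. Nfe2l1, the transcription factor that raises subunit genes when the proteasome is inhibited, read 3175, 2847 and 3081 in CD34+ clones, against 3623, 3658 and 3648 in CD34- clones. The groups did not overlap, and the log2 difference of -0.26 had limma adjusted p = 0.0809. Of 4 tested genes for ubiquitin supply and the unfoldase p97, Vcp, which encodes p97, rose by 0.39 (limma adjusted p = 0.0221), with 7175 to 8210 in CD34+ clones against 5281 to 6159 in CD34- clones. That call was lost without CD34+ replicate 1 or 3 or CD34- replicate 2 (0.0601 to 0.0740) and in 5 of 14 alternatives in all.

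Genes that load proteasome products onto class I molecules fell or were not called. Of 7 tested, 2 fell, where 3.50% of all genes and 6.69% of all tested probe sets on MG_U74Av2 fell. The median was -0.52, beside 0.02 over all genes. With limma 0 rose, also at an unadjusted p under 0.05. Tapbp, which encodes the loading factor tapasin, read 3526, 3411 and 4534 in CD34+ clones, against 8377, 8001 and 9551 in CD34- clones (log2 -1.17, limma adjusted p = 0.000433). B2m, the light chain of class I molecules, read 20263, 23607 and 17572 in CD34+ clones, against 28722, 34896 and 35450 in CD34- clones (log2 -0.69, limma adjusted p = 0.00464). Neither overlapped between the groups. Tap1, a subunit of the peptide transporter, differed by -0.52 with overlap (limma adjusted p = 0.171).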

How the data were processed

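RNA of 6 preparations was read on 3 Affymetrix chip types. The authors deposited signal intensities on a linear scale, computed with MAS5 per the submitters' processing notes, whose version no source names. Fluidics stations were read from the deposited run settings. Deposited means, trimmed by 2% at each end, were 1461 to 1480 on CD34+ arrays and 12.2 to 105 on CD34- arrays, so quantile normalization was applied to each chip type's 6 arrays. Per chip type the 20th percentile (51.5, 106 and 97.9) was added before log2, which understates differences of dim probe sets. Probe sets above the 40th percentile of their own array on at least 3 of 6 arrays were tested with limma 3.58.1 (R 4.3.3; eBayes with an intensity trend, group as the only term), with Benjamini-Hochberg adjustment within the chip type, two-sided. That left 7634, 7737 and 7481 probe sets. The fit was tested on simulated data. Symbols came from GEO's platform annotation, and no genome build is named by the array files. Since no label states separate cultures or animals within a group, the p-values cover the spread among these RNAs alone, and that spread may be technical. The number of arrays limits the precision.

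Every gene of the 7 classes was accounted for. Values per RNA were given by rule for the catalytic, activator and assembly genes and for the 3 largest differences in each other class; further values were added after they were seen. Members, classes and lists were chosen with earlier results of these data known. Equal replicate numbers did not deviate together (r -0.05 to 0.07), so they were not used as pairs.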

Additional observations from a re-analysis of the deposited data

How the results depend on the processing

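Normalization, offset, filter, variance model, fluidics station, replicate block and each RNA were changed 1 at a time, 14 alternatives in all. Of 12 called members (Psme3ip1 included) 7 were called in all 14: Psma3, Psma5, Psmb4, Psmb10, Psmd4, Psmd8 and Psmg2. Psma1 was lost in 5, Psma2 in 4, Psma6 in 6, Psmb7 in 10 and Psme3ip1 in 10. None of the 12 changed sign, which says little: their groups did not overlap, and several alternatives leave the difference itself unchanged. The count of members that rose on MG_U74Av2 was 6 to 11 when 1 RNA was left out, against 10 with all, and 7 to 10 otherwise. The count that fell was 1 to 2 without 1 RNA. With the replicate block it was 2, where Psmg3 joined Psmb10 (limma adjusted p = 0.0181), and 10 rose as before. On MG_U74Bv2 and MG_U74Cv2 it stayed 0 in each. Taking the mean of a gene's tested probe sets moved the class median to 0.35 for the alpha ring, 0.17 for the beta ring and 0.22 for the ATPases. Leaving out 1 RNA gave medians of 0.37 to 0.49 for the alpha ring, 0.16 to 0.41 for the beta ring, 0.0378 to 0.15 for the ATPases, 0.18 to 0.26 for the other cap subunits, -0.60 to -0.37 for the immunoproteasome class, 0.02 to 0.29 for the other activators and 0.00 to 0.13 for the assembly factors. The pair differences kept their sign in the 10 alternatives run, with ranges without 1 RNA of -0.39 to -0.11 for Psmb8 minus Psmb5, -1.45 to -0.83 for Psmb9 minus Psmb6 and -1.11 to -0.88 for Psmb10 minus Psmb7. For Psmb10 minus Psmb7 the sign says little, since neither gene overlapped between the groups. Of the uncalled genes, 3 changed sign without CD34- replicate 3 and 1 without CD34- replicate 2; their ranges without 1 RNA were -0.147 to 0.0457 for Psmb1, -0.0170 to 0.243 for Psmd5, -0.180 to 0.0221 for Psmg1 and -0.00636 to 0.0982 for Psmc2. The causes were not tested. Over all probe sets of MG_U74Bv2, calls were 53 higher and 31 lower, against 23 and 14 with no filter, 11 and 5 without the variance trend and 1 and 0 with the station as a block, so that chip type limits what can be called.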

Other observations

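The symbol rule also caught 4 probe sets outside the 7 classes. Psme3ip1, a nuclear protein that binds the PA28 ring of Psme3, fell in CD34+ clones on MG_U74Av2, at 782, 876 and 723 against 1152, 1022 and 1222 in CD34- clones (log2 -0.49, limma adjusted p = 0.0350). The groups did not overlap, and the call was lost in 10 of 14 alternatives. Its second probe set, Psmb11, the thymus-specific catalytic subunit, and Psmc3ip, a meiotic recombination factor, were too dim to test.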
